A study of Mus musculus with 12 samples.

Results

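The interferon response genes described here are 38 genes chosen by symbol, each matched to 1 of the 54532 genes in the expression table. Most are RNA sensors, transcription factors and antiviral effectors that interferon switches on, and Dhx58os is a noncoding transcript on the strand opposite Dhx58. RNA was sequenced from limb mesenchyme of mouse embryos at E14.5, and 12 libraries were compared. The 6 iCreb5 libraries came from cells in which Cre recombinase had switched on a Rosa26 allele that encodes HA-tagged bovine Creb5 and, after an internal ribosome entry site, GFP. The 6 tdTomato libraries came from cells in which Cre had switched on a Rosa26 allele encoding the red fluorescent protein tdTomato. Cre came from the sire in both groups and was driven by regulatory sequence of Prrx1, a limb mesenchyme gene, so the tdTomato cells carried Prrx1-Cre as well and differed in the Rosa26 allele that they had inherited. Cells were sorted by fluorescence. By the litter labels, 3 iCreb5 and 3 tdTomato libraries came from litter 3 and 1 pair from each of litters 4, 5 and 6. The study's design text counts 6 independent litters where the labels mark 4; all litter results below follow the labels, and what they mean would differ if litter 3 held several litters. Batch labels follow the labelled litters, so these cannot be told apart. The sources used here do not say whether embryos were pooled, and the p-values below refer to the variation among the 12 libraries.

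Interferons are secreted proteins that cells release after sensing foreign or misplaced nucleic acid. Type I interferon binds the receptor pair Ifnar1 and Ifnar2, whose kinases activate Stat2, and Stat2 joins Irf9 in a complex that binds a promoter element called the interferon-stimulated response element. Interferon gamma acts through a different receptor, and its target genes carry a promoter element called the gamma-activated site. The genes switched on block viral replication and translation, and macrophages and their relatives are among the cells in which they are known to be abundant.

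Start regions of Ifit1, Gbp3, Samd9l and Ifih1, which passed the test below, and of Isg15, which did not, are printed first. The core of the response element can be read there where it is present. Sequences are from RefSeq promoter windows on GRCm38.p6 (250 bases before to 50 after an annotated start), 5′ to 3′ on the strand of the gene. Capitals mark matches to the element's core, which is GAAA, any 2 bases and GAAA again, on either strand; TTTC, any 2 bases and TTTC is the same core read from the other strand. Matches that overlap share bases and are printed as 1 run. Shown are the 150 bases before the start of Ifit1 (chr19:34640739-34640888, plus strand), Gbp3 (chr3:142559894-142560043, plus strand), Isg15 (chr4:156200819-156200968, minus strand) and Samd9l (chr6:3399572-3399721, minus strand), and 28 bases after the start of Ifih1 (chr2:62646206-62646233, minus strand).
Ifit1: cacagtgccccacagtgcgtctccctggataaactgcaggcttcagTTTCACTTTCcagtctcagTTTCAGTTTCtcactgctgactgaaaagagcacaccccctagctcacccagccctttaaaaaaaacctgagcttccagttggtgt
Gbp3: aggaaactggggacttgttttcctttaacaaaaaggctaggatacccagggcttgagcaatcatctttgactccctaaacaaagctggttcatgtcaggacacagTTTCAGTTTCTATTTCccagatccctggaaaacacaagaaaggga
Isg15: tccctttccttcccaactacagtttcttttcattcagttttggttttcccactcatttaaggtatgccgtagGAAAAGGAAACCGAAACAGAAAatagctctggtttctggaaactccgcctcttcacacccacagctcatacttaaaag
Samd9l: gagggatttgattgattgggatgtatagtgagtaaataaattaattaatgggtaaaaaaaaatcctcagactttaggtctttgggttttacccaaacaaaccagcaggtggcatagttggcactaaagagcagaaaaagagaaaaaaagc
Ifih1: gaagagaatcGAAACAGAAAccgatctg

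Ifit1 carried the core at 104 and 85 bases before its start. Gbp3 carried overlapping matches at 45 and 39 bases before its start, and Isg15 carried 3 overlapping matches between 78 and 66 bases before it. The match of Ifih1 began 33 bases after its start, and the Samd9l window held no match. Gbp3 had another window, not printed, that held no match, and no window was found for Dhx58os. Windows were found for 27 of the 38 members, and 14 of these 27 (51.9%) held the core, against 3.99% of 27025 genes with such a window. The gamma-activated site, TTCNNNGAA on either strand, stood in 7 of the 27 (25.9%) and in 9.55% of all genes with a window. These matches are letters in a sequence and no binding was measured.

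**Figure D1:**
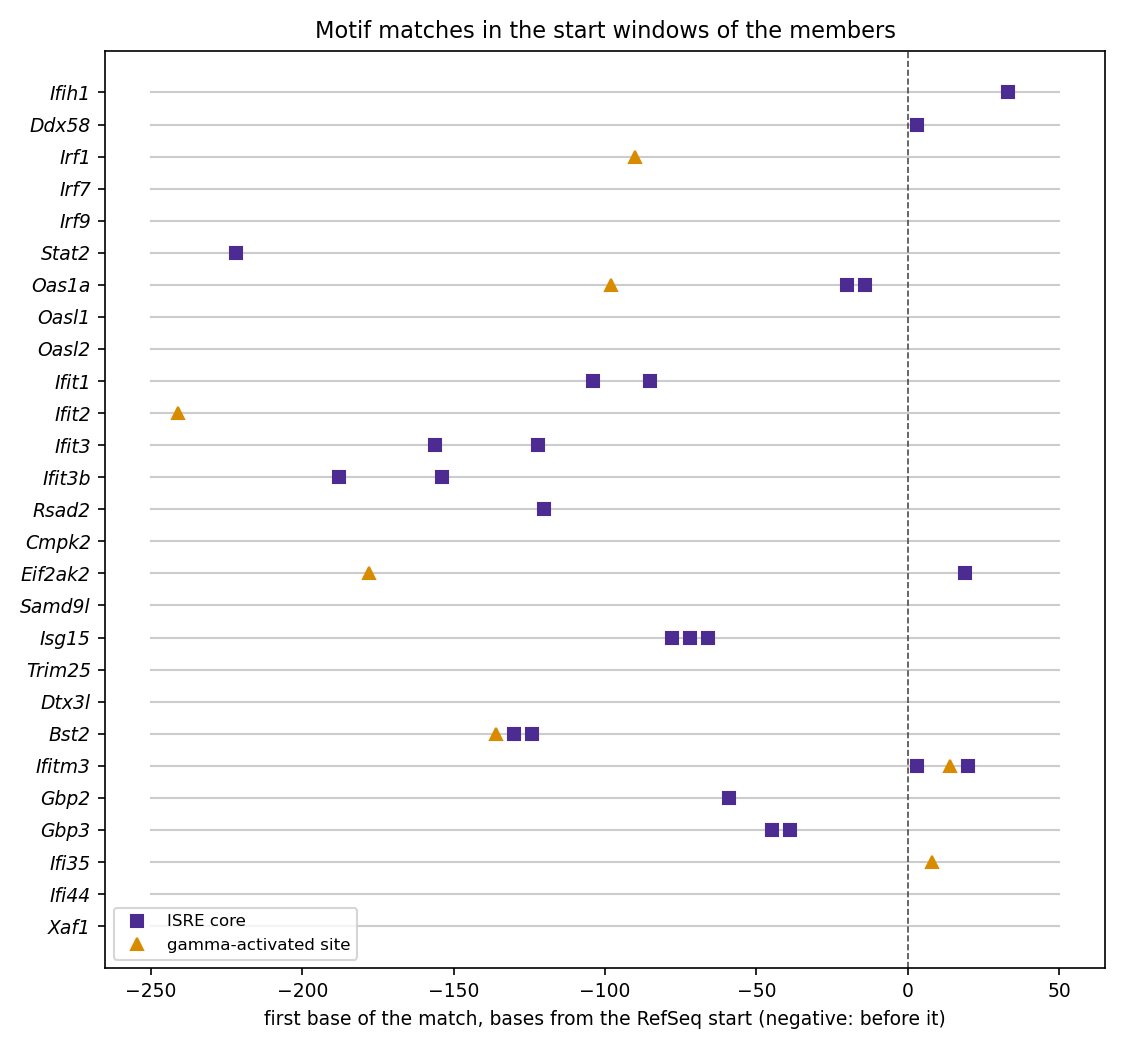
Position of each match to the response element core (squares) and to the gamma-activated site (triangles) in the windows of 27 members. The x axis gives bases from the RefSeq start, and the grey line is the window searched; the core was found in 14 members and the gamma-activated site in 7.

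Of the 38 members, 33 reached a normalised count of at least 10 in at least 6 libraries and were tested. A normalised count is the read count of a gene divided by a factor for the depth of its library. Changes are log2 differences of normalised count + 1, iCreb5 minus tdTomato, given with their standard error (SE), and a fold is 2 to that power. By limma with Benjamini-Hochberg adjustment over all 16733 genes tested, 3 members were higher in iCreb5 libraries (Ifih1, Ifit1 and Gbp3) and 2 were lower (Dhx58os and Samd9l) at an adjusted p under 0.05. That is 9.09% and 6.06% of the 33, beside 3.87% higher and 2.85% lower over all genes tested, and counts this small are given as counts only. The median change of the 33 was 0.26, against 0.0038 for all genes tested, with 23 members above 0 and 10 below. The same 5 members passed in edgeR and in DESeq2. Whether a difference in a bulk library comes from the number of cells of a type or from RNA per cell cannot be told apart.

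Recovered depth ran from 9.02 to 53.3 M reads per library (M for 1000000), and 3 reads were worth between 1.48 and 8.38 normalised counts. Creb5, as listed under the mouse gene, had 2799 ± 214 normalised counts in iCreb5 libraries and 1803 ± 299 in tdTomato libraries (SD, n = 6 each; log2 change 0.65, SE 0.12, limma adjusted p = 0.00219). All 10 defining limb mesenchyme markers, among them Prrx1, Twist1 and Pdgfra, were tested, and none was called by limma without litter, edgeR or DESeq2, with 1 at an unadjusted p under 0.05. In limma, Msx1 was lower with litter as a block (adjusted p = 0.0386) and Pdgfrb was lower in litters 4 to 6 (adjusted p = 0.0078). Of 20 leukocyte markers, 19 were tested and 18 were higher in iCreb5 libraries, with a median log2 change of 2.47 and none of the 20 at 0 throughout. Their summed level ran from 3824 to 16800 normalised counts in iCreb5 libraries and from 1340 to 1890 in tdTomato libraries, without overlap. Of 10 endothelial markers, 5 were higher (Pecam1, Cdh5, Kdr, Tek and Tie1), with sums of 2249 to 4824 in iCreb5 libraries and 1735 to 2469 in tdTomato libraries. The 5 became 2 on leaving out iCreb5 3a, 3b, 3c or 6 or tdTomato 3a or 3b. They became 3 on leaving out iCreb5 4a or tdTomato 3c, 4a or 6d. With the litter block and litter 3 averaged, or with no filter on low values, 2 were higher, and 1 was in litters 4 to 6. Other settings gave more. The count was 6 in edgeR, with equal totals, with litter as a block, without iCreb5 5 and without iCreb5 5 and 6 together. In DESeq2 it was 7. Erg, an endothelial transcription factor, went the other way, at 205 ± 31.0 normalised counts in iCreb5 libraries and 321 ± 79.5 in tdTomato libraries (SD, n = 6 each; log2 change -0.62, limma adjusted p = 0.0557). It was lower in edgeR (adjusted p = 0.0445), in DESeq2 (adjusted p = 0.00817) and in limma with litter as a block (adjusted p = 0.0476). The part of these other cells in the results on interferon genes was not tested.

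The list of RNA sensors, which also holds the noncoding transcript Dhx58os, had 4 genes tested. Of these, the sensor Ifih1 was higher and Dhx58os was lower. Ifih1 (Mda5, a cytoplasmic sensor of long double-stranded RNA; chr2:62595798-62646255, minus strand) had 115, 31.0, 86.5, 75.4, 35.6 and 174 normalised counts in iCreb5 libraries 3a, 3b, 3c, 4a, 5 and 6. It had 22.3, 40.0, 26.0, 28.5, 19.8 and 30.7 in tdTomato libraries 3a, 3b, 3c, 4a, 5b and 6d. iCreb5 libraries 3b and 5 lay within the tdTomato range and the other 4 above it, so the groups overlapped. Ifih1 was 2.61-fold higher in iCreb5 libraries (log2 change 1.38, SE 0.38, limma adjusted p = 0.0395). This call rested on the full set: it was lost on leaving out iCreb5 3a, 3c, 4a or 6 or tdTomato 3a, 3c, 4a, 5b or 6d, where the adjusted p lay between 0.0598 and 0.100. Only 3 of the 12 libraries could be left out singly with the call kept.

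Dhx58os, a noncoding transcript on the strand opposite Dhx58 (chr11:100687417-100697520, plus strand), showed the lowest adjusted p of the members. It had 7.59, 20.7, 5.57, 20.47, 53.5 and 38.6 normalised counts in iCreb5 libraries 3a, 3b, 3c, 4a, 5 and 6. It had 109, 143, 129, 112, 109.5 and 114 in tdTomato libraries 3a, 3b, 3c, 4a, 5b and 6d. Every iCreb5 library lay below every tdTomato library, and the tdTomato libraries were close together. Dhx58os was lower in iCreb5 libraries (log2 change -2.61, SE 0.44, limma adjusted p = 0.00129), which makes tdTomato libraries 6.11-fold higher, and it passed in all 25 alternative settings. Dhx58 itself (Lgp2, a regulator of the sensors Ifih1 and Ddx58) had a median of 45.6 normalised counts in iCreb5 libraries and 35.0 in tdTomato libraries, with overlap and a change of 0.26 (SE 0.24, limma adjusted p = 0.639).

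The locus of Dhx58os holds other transcripts. Its exons share 141 of 1594 bases (8.85%) with Dhx58, and the library kit does not mark strand, so reads in that stretch cannot be assigned to 1 of the pair. It also overlaps Zfp385c, a zinc finger gene on the opposite strand with which it shares no exon base. Zfp385c, named after its values were seen, averaged 27.6 ± 6.57 normalised counts in iCreb5 libraries and 95.2 ± 45.0 in tdTomato libraries (SD, n = 6 each; log2 change -1.63, SE 0.34, limma adjusted p = 0.00613). Both genes were thus lower in iCreb5 libraries at this locus, while Dhx58 did not pass.

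Ddx58 (Rig-I), the sensor of short RNA with a triphosphate end, ran from 152 to 365 normalised counts in iCreb5 libraries (median 293) and from 195 to 350 in tdTomato libraries (median 305). Its change was -0.07 (95% interval -0.54 to 0.40, limma adjusted p = 0.915). Zbp1, a sensor of Z-form nucleic acid, was below the filter, with at most 6.07 normalised counts in iCreb5 libraries and 7.35 in tdTomato libraries.

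**Figure D2:**
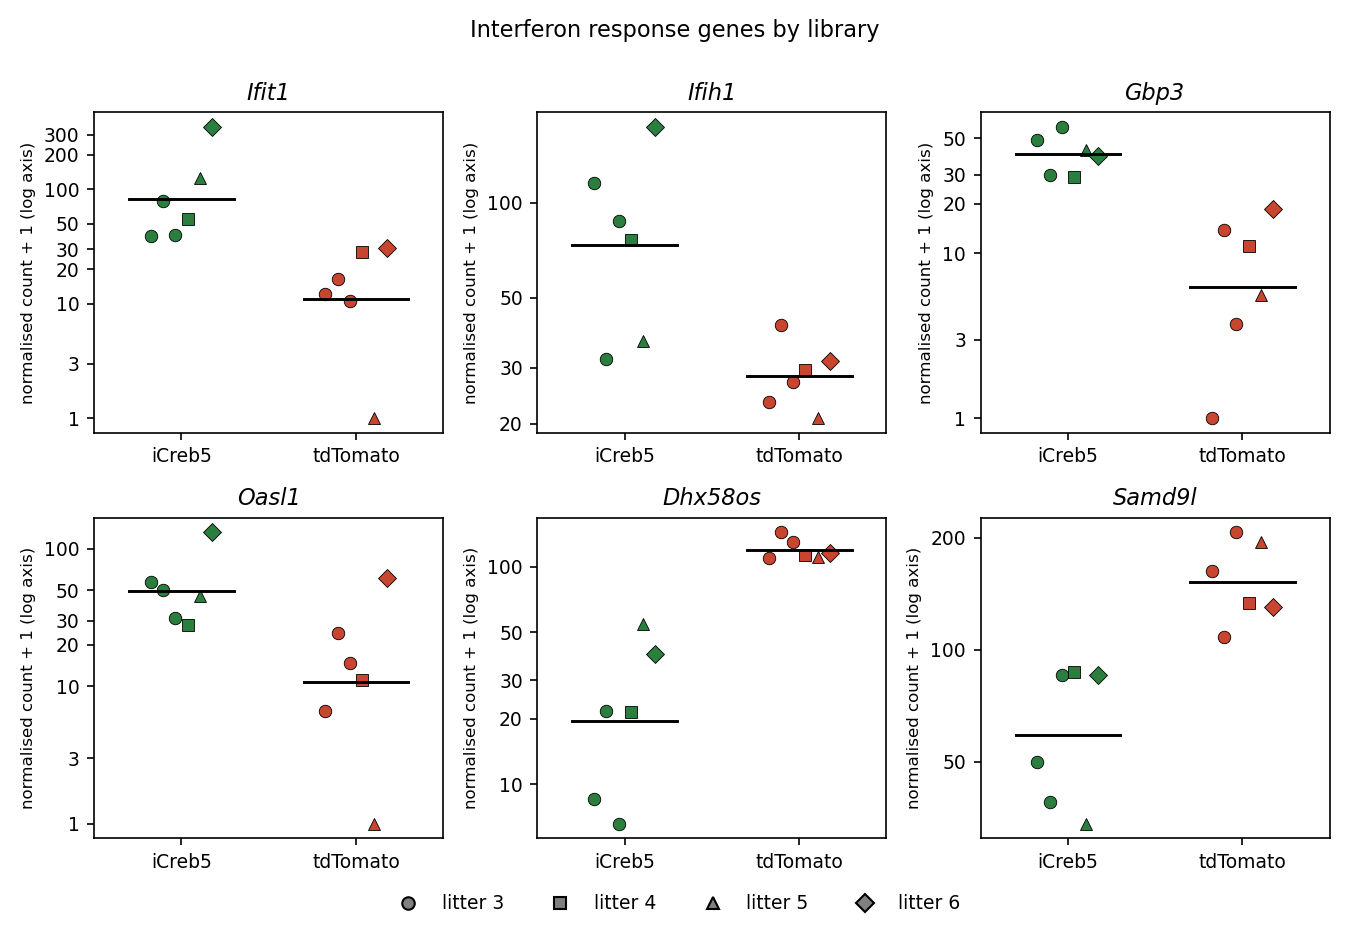
Normalised count + 1 on a log axis in each library for the 5 members past the threshold and Oasl1, with iCreb5 (green) left of tdTomato (red). Marker shapes give the litter and bars the geometric mean; the groups do not overlap for Ifit1, Gbp3, Dhx58os and Samd9l and overlap for Ifih1 and Oasl1.

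None of the 4 transcription factors of the response passed in limma, edgeR or DESeq2, with 1 (Irf9) at an unadjusted p under 0.05. Irf9, the DNA-binding partner of Stat2, had a median of 457 normalised counts in iCreb5 libraries and 349 in tdTomato libraries (log2 change 0.30, SE 0.14, limma adjusted p = 0.264). Stat2 itself had medians of 390 in iCreb5 libraries and 386 in tdTomato libraries. Irf1, which binds interferon-stimulated promoters without a Stat partner, had medians of 767 in iCreb5 libraries and 863 in tdTomato libraries, and its highest library was iCreb5 6 at 1586. Irf7, the factor that amplifies interferon production, was weak, at 27.6 to 93.3 normalised counts in iCreb5 libraries and 8.38 to 56.3 in tdTomato libraries (log2 change 0.81, SE 0.44, limma adjusted p = 0.360). The groups overlapped for all 4.

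The OAS family holds enzymes that make 2′-5′-linked oligoadenylate on sensing double-stranded RNA, and the OAS-like genes. Oasl1, an inhibitor of Irf7 translation in mice, had 56.5, 49.4, 30.4, 26.9, 44.1 and 131 normalised counts in iCreb5 libraries 3a, 3b, 3c, 4a, 5 and 6. It had 5.58, 23.2, 13.7, 10.1, 0 and 60.4 in tdTomato libraries 3a, 3b, 3c, 4a, 5b and 6d. Every iCreb5 library lay above 5 of the 6 tdTomato libraries, and tdTomato 6d lay within the iCreb5 range. The change of 2.20 (SE 0.75) did not pass in the comparison without litter (limma adjusted p = 0.103) and passed with litter as a block (limma adjusted p = 0.0235) or without tdTomato 6d (limma adjusted p = 0.0296). With the block and litter 3 averaged to 1 value a group it did not pass (limma adjusted p = 0.0793). With the litter block, 5.13% of all genes tested were higher and 4.35% lower, and 4 members were higher and 2 lower.

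Oas1a ran from 10.6 to 38.6 normalised counts in iCreb5 libraries and from 9.39 to 25.1 in tdTomato libraries (log2 change 0.48, limma adjusted p = 0.564). Of its transcript's 50-base words, 57.6% also occur in Oas1g, so its reads could be split between the pair. Oasl2 had medians of 33.0 in iCreb5 libraries and 31.6 in tdTomato libraries. Oas2 stayed under the filter, with at most 13.2 normalised counts in iCreb5 libraries and 15.8 in tdTomato libraries.

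The IFIT proteins bind foreign RNA and stop its translation, and their genes stand next to each other on chromosome 19. Ifit1 (chr19:34640871-34650009, plus strand), which binds RNA that lacks a methylated cap, had 37.9, 78.1, 39.0, 53.9, 124 and 350.3 normalised counts in iCreb5 libraries 3a, 3b, 3c, 4a, 5 and 6. It had 11.2, 15.3, 9.59, 27.6, 0 and 29.7 in tdTomato libraries 3a, 3b, 3c, 4a, 5b and 6d. All 6 iCreb5 libraries lay above all 6 tdTomato libraries, with iCreb5 5 and 6 highest. Ifit1 was 7.37-fold higher in iCreb5 libraries (log2 change 2.88, SE 0.75, limma adjusted p = 0.0274). The call was lost without iCreb5 3b (adjusted p = 0.0546), iCreb5 6 (0.0656), tdTomato 3a (0.0510) or tdTomato 3c (0.0502), and the log2 change was 2.20 (limma adjusted p = 0.112) without iCreb5 5 and 6 together. Without tdTomato 3a, the shallowest library, and tdTomato 5b, where Ifit1 was at 0, it was 2.05 (limma adjusted p = 0.0529). Of the 50-base words of Ifit1, 7.13% occur in other genes, nearly all of them in its neighbour Ifit1bl2.

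Its neighbours in the family did not pass. Ifit2, which shares the RNA-binding repeats, had the highest level per kilobase of exon in the family, at 121 normalised counts per kilobase in iCreb5 libraries and 106 in tdTomato libraries. Its change was 0.19 (95% interval -0.19 to 0.57, limma adjusted p = 0.645). Ifit3, a partner of the other IFIT proteins, had medians of 44.3 normalised counts in iCreb5 libraries and 36.2 in tdTomato libraries (limma adjusted p = 0.594), and iCreb5 5 and 6 were its highest libraries at 95.0 and 89.6. Ifit3b had medians of 12.7 in iCreb5 libraries and 7.59 in tdTomato libraries (limma adjusted p = 0.891).

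Ifit3 and Ifit3b are near copies of each other, which bears on how their reads are assigned. Of the 50-base words of Ifit3, 51.2% occur in Ifit3b, and 45.0% of those of Ifit3b occur in Ifit3. The copies extend into the start regions: the stretches with the response element core (chr19:34583363-34583422 and chr19:34607759-34607818, plus strand, capitals for the core) were identical at 60 of 60 positions.
Ifit3: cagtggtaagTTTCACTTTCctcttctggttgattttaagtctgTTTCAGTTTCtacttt
Ifit3b: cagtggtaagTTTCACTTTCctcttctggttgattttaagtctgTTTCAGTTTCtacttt

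The guanylate-binding proteins are large GTPases that coat the membranes around intracellular pathogens. Gbp3 (chr3:142560026-142573209, plus strand) had 48.0, 28.7, 57.7, 28.0, 41.6 and 37.8 normalised counts in iCreb5 libraries 3a, 3b, 3c, 4a, 5 and 6. It had 0, 12.8, 2.74, 10.1, 4.56 and 17.7 in tdTomato libraries 3a, 3b, 3c, 4a, 5b and 6d. All iCreb5 libraries lay above all tdTomato libraries, and iCreb5 5 and 6 stood in the middle of their group. In tdTomato 3a, where Gbp3 was at 0, 1 read is worth 2.79 normalised counts. Gbp3 was 6.40-fold higher in iCreb5 libraries (log2 change 2.68, SE 0.60, limma adjusted p = 0.0108). It passed without any 1 of the 12 libraries and, at a log2 change of 2.67, without iCreb5 5 and 6 together (limma adjusted p = 0.0400). Without tdTomato 3a and 5b the log2 change was 1.98 (limma adjusted p = 0.0165), and Gbp3 did not pass in litter 3 alone (limma adjusted p = 0.0603) or in litters 4 to 6 (0.143). Its transcripts share 3.75% of their 50-base words with Gbp7.

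Its family member Gbp2 did not pass. Gbp2 had 5.90, 0, 16.7, 12.9, 23.8 and 51.0 normalised counts in iCreb5 libraries 3a, 3b, 3c, 4a, 5 and 6, and 16.8, 21.7, 30.1, 23.9, 28.9 and 18.6 in tdTomato libraries 3a, 3b, 3c, 4a, 5b and 6d. The iCreb5 libraries spanned the tdTomato range, with the lowest and the highest library both in iCreb5 (log2 change -1.07, SE 0.71, limma adjusted p = 0.481).

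Among the other direct antiviral effectors, 1 of 4 tested was lower. Samd9l (chr6:3372257-3399572, minus strand), an interferon-induced inhibitor of translation and of cell growth, had 48.9, 37.9, 84.5, 86.2, 33.1 and 84.7 normalised counts in iCreb5 libraries 3a, 3b, 3c, 4a, 5 and 6. It had 162, 107, 206, 132, 193 and 129 in tdTomato libraries 3a, 3b, 3c, 4a, 5b and 6d. All iCreb5 libraries lay below all tdTomato libraries. The log2 change was -1.36 (SE 0.28, limma adjusted p = 0.0063), and it passed on leaving out each of the 12 libraries in turn. It did not pass with litter as a block and litter 3 averaged (limma adjusted p = 0.0562), in litter 3 alone (0.0600) or in litters 4 to 6 (0.140).

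Rsad2 (viperin, which makes a chain-terminating nucleotide) and Cmpk2, its neighbour on chromosome 12 and a nucleotide kinase, both had changes above 0 without passing. Rsad2 ran from 38.4 to 236 normalised counts in iCreb5 libraries (median 66.8) and from 15.1 to 72.6 in tdTomato libraries (median 25.5), with a change of 1.27 (SE 0.46, limma adjusted p = 0.135). Cmpk2 had medians of 277 in iCreb5 libraries and 215 in tdTomato libraries, with a change of 0.41 (SE 0.16, limma adjusted p = 0.168). Eif2ak2 (Pkr), the kinase that stops translation on sensing double-stranded RNA, had a change of 0.04 (95% interval -0.33 to 0.40). Mx1 and Mx2, GTPases against viral nucleocapsids, were below the filter, with at most 15.2 and 14.8 normalised counts in iCreb5 libraries and 11.0 and 15.6 in tdTomato libraries.

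Isg15 is a ubiquitin-like protein that interferon induces strongly, Usp18 removes it, and Trim25, Dtx3l, Parp9 and Parp14 are ligases and ADP-ribosylation factors of the same response. None of the 5 tested passed in limma, edgeR or DESeq2, and none had an unadjusted p under 0.05. Isg15 had 21.9, 19.5, 12.6, 19.4, 45.0 and 87.2 normalised counts in iCreb5 libraries 3a, 3b, 3c, 4a, 5 and 6, and 13.96, 13.3, 8.22, 19.3, 18.3 and 13.9 in tdTomato libraries 3a, 3b, 3c, 4a, 5b and 6d. iCreb5 5 and 6 lay above every other library, while the other 4 iCreb5 libraries were at 12.6 to 21.9, beside 8.22 to 19.3 in tdTomato libraries; the change was 0.92 (SE 0.43, limma adjusted p = 0.275). Without iCreb5 5 and 6 it was 0.34 (limma adjusted p = 0.660).

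Usp18 had medians of 29.0 normalised counts in iCreb5 libraries and 31.5 in tdTomato libraries, and Trim25 had 89.9 in iCreb5 libraries and 73.3 in tdTomato libraries. Dtx3l had 81.0 in iCreb5 libraries and 58.7 in tdTomato libraries, and Parp9 had 152 in iCreb5 libraries and 137 in tdTomato libraries. Dtx3l and Parp9 overlap head to head on opposite strands over 458 exon bases, so their reads cannot be fully separated. Parp14, below the filter, ran from 0.849 to 39.6 in iCreb5 libraries and from 0 to 23.9 in tdTomato libraries.

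The most abundant members per kilobase of exon encode membrane proteins. Ifitm3, which keeps enveloped viruses from fusing with endosomes, reached 2083 normalised counts per kilobase in iCreb5 libraries and 2630 in tdTomato libraries, followed by Ifi27 at 616 in iCreb5 libraries and 645 in tdTomato libraries. Bst2 (tetherin, which holds budding virus at the cell surface) had 251 per kilobase in iCreb5 libraries and 270.5 in tdTomato libraries. Ifitm3 had a median of 1202 normalised counts in iCreb5 libraries and 1575 in tdTomato libraries, with overlap and a change of -0.35 (SE 0.19, limma adjusted p = 0.348); without iCreb5 5 and 6 it was lower, at -0.59 (limma adjusted p = 0.0434). Bst2 had a change of -0.15 (95% interval -0.61 to 0.32) and Ifi27 of -0.08 (95% interval -0.45 to 0.29), neither past the threshold.

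The remaining members did not pass. Rtp4, a chaperone of membrane receptors, ran from 37.4 to 86.2 normalised counts in iCreb5 libraries and from 19.8 to 58.6 in tdTomato libraries (log2 change 0.75, SE 0.34, limma adjusted p = 0.244), and 11.6% of its 50-base words occur in the overlapping transcript Gm45338. Xaf1, an interferon-induced promoter of cell death, had medians of 36.2 in iCreb5 libraries and 25.4 in tdTomato libraries (log2 change 0.65, limma adjusted p = 0.408), and iCreb5 5 and 6 were its highest libraries. Ifi35 had medians of 173 in iCreb5 libraries and 177 in tdTomato libraries. Ifi44 was uneven, from 6.46 to 38.2 in iCreb5 libraries and from 0 to 60.8 in tdTomato libraries.

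**Figure D3:**
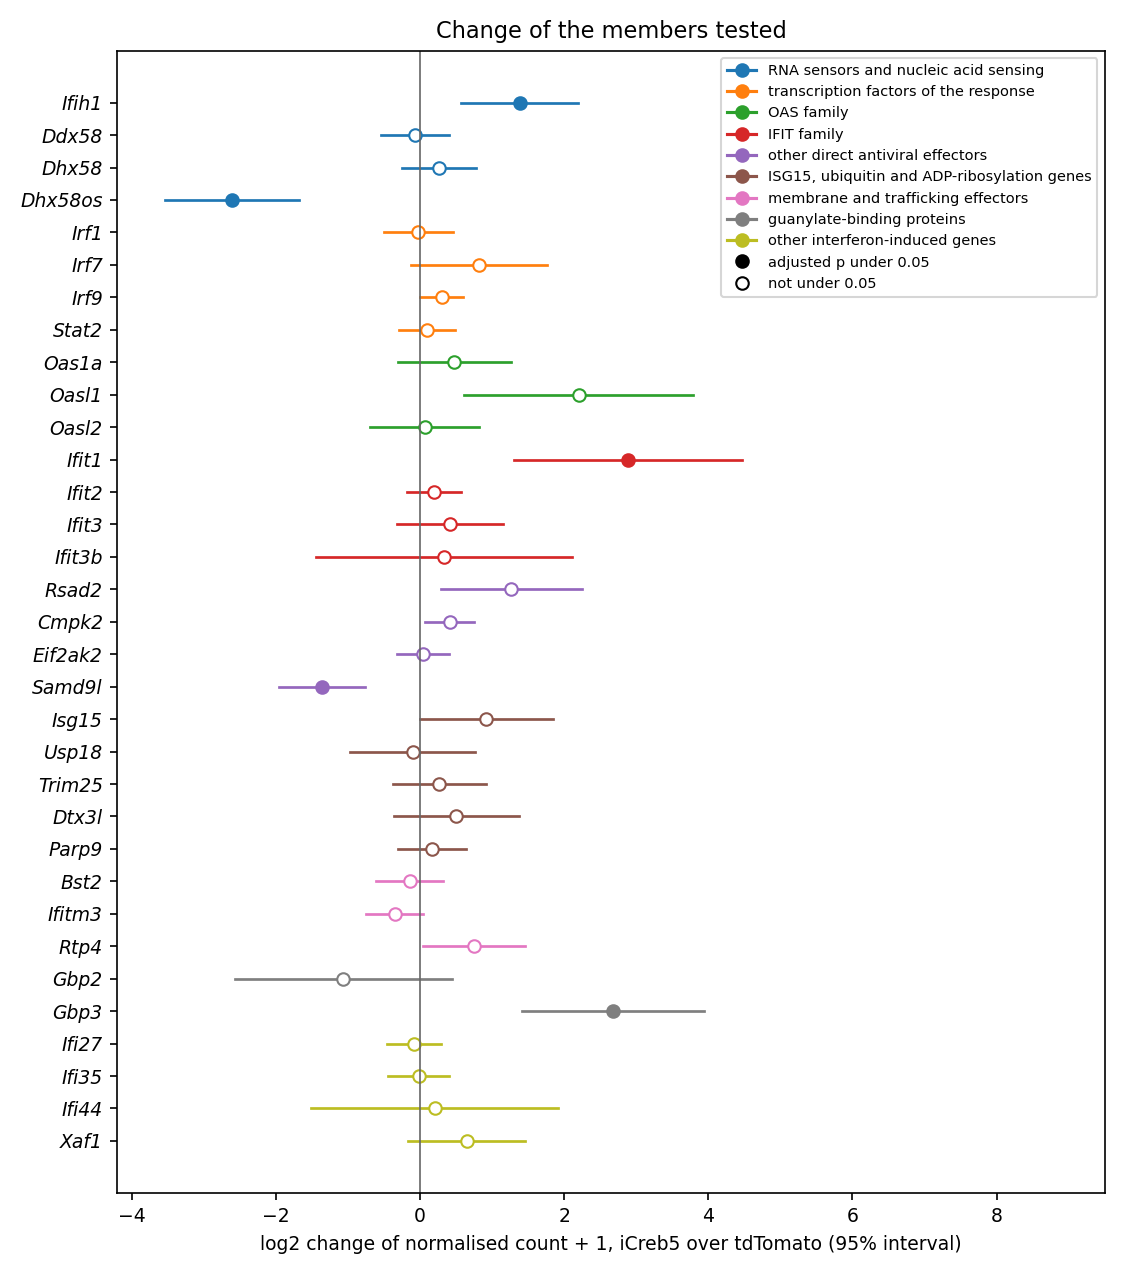
Log2 change of normalised count + 1 (iCreb5 over tdTomato) with its 95% interval for the 33 members tested, coloured by role. Filled points are the 5 members with a limma adjusted p under 0.05 over all genes; intervals of most others include 0.

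The litters were then taken apart. Within litter 3 alone (3 libraries of each group), Ifit1 was higher (log2 change 1.96, limma adjusted p = 0.0485) and Dhx58os lower, so 1 member passed in each direction, beside 2.36% of all genes tested higher and 1.75% lower. Within litters 4 to 6, with litter as a term, no member was higher in limma (8 were at an unadjusted p under 0.05) and Dhx58os was lower, beside 1.91% of all genes higher and 2.2% lower; Ifit1 had an adjusted p of 0.0527 there in limma. The difference between litter 3 and litters 4 to 6, tested as an interaction in limma, passed for 0 of 16733 genes. At an unadjusted p under 0.05 it held for 1500 genes, 4 of them members, and the lowest adjusted p of a member was 0.501.

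The sign of the difference was the same in all 4 litters for 12 of the 33 members tested, with 1 library against 1 in litters 4, 5 and 6. Some of these differences were close to 0. In litter 4 they were 0.0041 for Cmpk2 and 0.0070 for Isg15. In litter 3 they were 0.062 for Rtp4, 0.082 for Oas1a and 0.092 for Irf9. Ifih1, Irf7, Irf9, Oas1a, Oasl1, Ifit1, Cmpk2, Isg15, Rtp4 and Gbp3 were above tdTomato in all 4 litters, beside 13.4% of all genes tested, and Dhx58os and Samd9l were below in all 4, beside 12.4%. The other 21 members were mixed. The groups did not overlap for 2 members above (Ifit1 and Gbp3; 2.83% of all genes) and 2 below (Dhx58os and Samd9l; 1.92% of all genes). In litter 3 the log2 difference of Dhx58os was -3.57, in litter 4 it was -2.40, in litter 5 it was -1.02 and in litter 6 it was -1.54. That of Ifit1 was 1.96 in litter 3, 0.94 in litter 4, 6.97 in litter 5 (where tdTomato 5b was at 0) and 3.51 in litter 6.

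**Figure D4:**
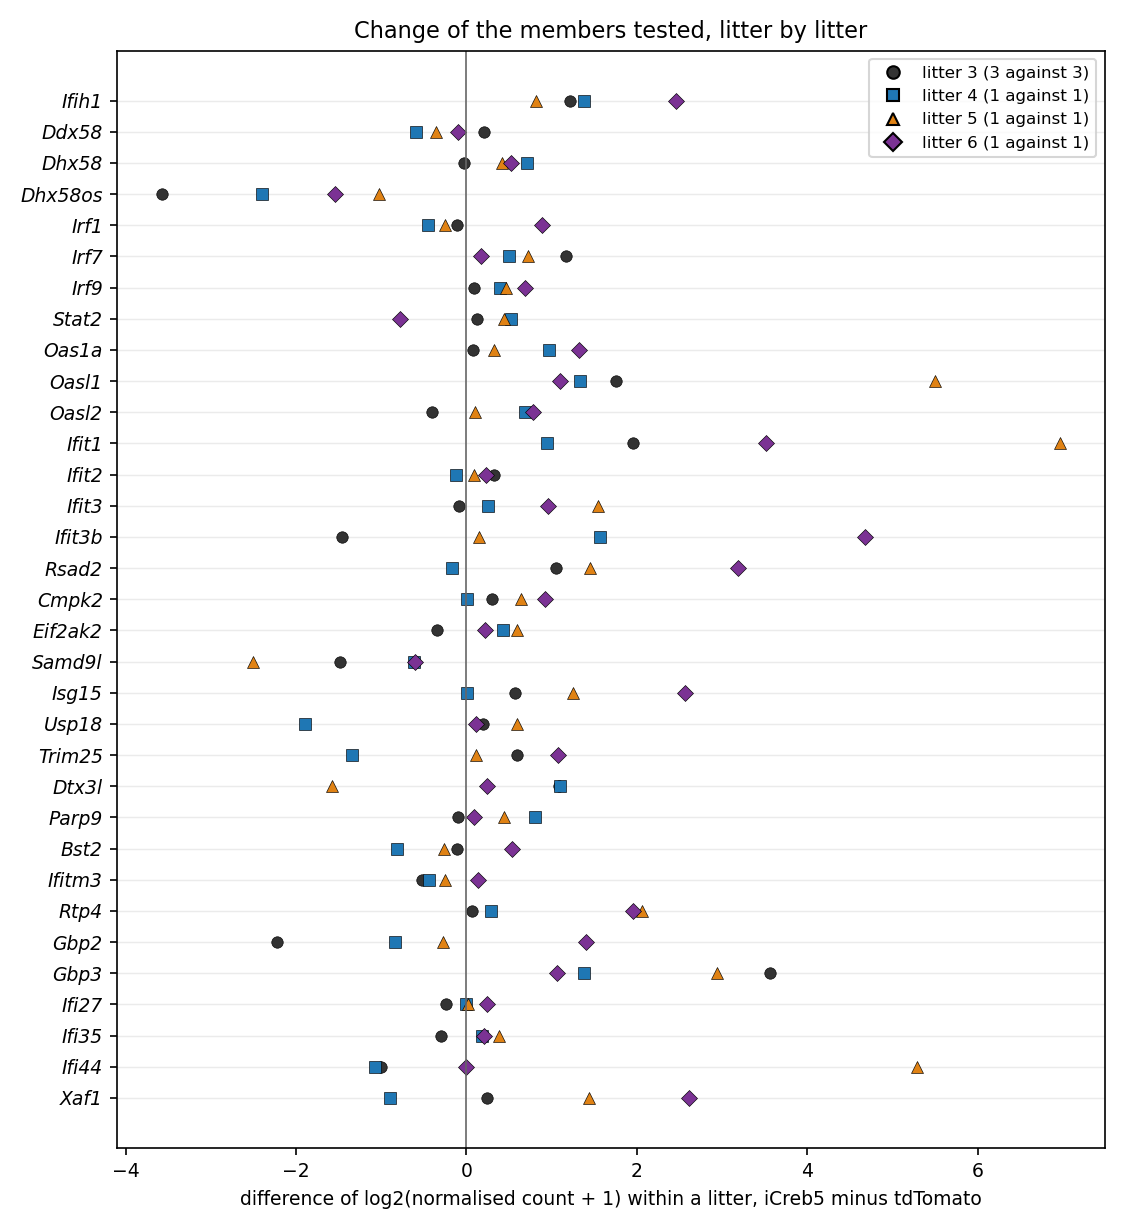
Difference of log2(normalised count + 1), iCreb5 minus tdTomato, within each litter for the 33 members tested (litter 3 is a difference of means of 3 libraries each, the others of 1 each). The 10 members right of 0 and the 2 left of 0 in all 4 litters stand beside 21 mixed ones. Cmpk2 and Isg15 lie almost at 0 in litter 4. Values beyond 5 in litter 5 belong to genes at 0 in tdTomato 5b.

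The highest iCreb5 library differed among the members. iCreb5 6 was the highest iCreb5 library for 14 of the 33 members tested and iCreb5 5 for 9. The same count was not made over all genes tested, so these are given as counts only. iCreb5 5 was the lowest iCreb5 library for Ddx58, Ifit2, Samd9l and Dtx3l, and iCreb5 6 was the lowest for Stat2. The largest sums of the 20 leukocyte markers were in iCreb5 6 (16800 normalised counts) and iCreb5 5 (10450). Those sums were 3824 to 9337 in the other iCreb5 libraries and 1340 to 1890 in tdTomato libraries. iCreb5 5 and 6 were also the highest iCreb5 libraries for red cell and skeletal muscle markers. Among iCreb5 libraries, the epidermis sum was highest in 4a (1103) and the Schwann cell and melanoblast sum in 3a (451). Red cell sums were 30710 in iCreb5 5 and 27480 in iCreb5 6, and 5027 to 9042 in the other iCreb5 libraries. Skeletal muscle sums were 2260 in iCreb5 5 and 3052 in iCreb5 6, and 1011 to 2059 in the other iCreb5 libraries. In tdTomato libraries, red cell sums ran from 2341 to 40240 and muscle sums from 1152 to 2676. Gbp3 was highest in iCreb5 3c, and the endothelial sum of iCreb5 5 was the lowest of the iCreb5 libraries, at 2249.

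Of the listed ligands of the pathway, all but Ifnb1 were nearly silent. Of 9 interferon genes, 7 were at 0 in all 12 libraries (Ifna1, Ifna2, Ifna4, Ifne, Ifnk, Ifnl2 and Ifnl3). Ifng had at most 0.988 normalised counts in a library, and none of the 9 was tested. Ifnb1, the interferon that most cell types can make (described after its values were seen), had 12.6, 0, 6.58, 1.08, 47.5 and 83.9 normalised counts in iCreb5 libraries 3a, 3b, 3c, 4a, 5 and 6. It had 5.58, 0, 4.11, 0, 0 and 3.72 in tdTomato libraries 3a, 3b, 3c, 4a, 5b and 6d, which are at most 4 reads. iCreb5 5 and 6, with 56 and 102 reads, were the highest libraries, and in the other libraries Ifnb1 had at most 15 reads. Both were also the highest libraries for some members, among them Ifit1, Isg15 and Xaf1. They were not together the highest for Ifih1, Gbp3, Oasl1, Rsad2 or Cmpk2. A link between Ifnb1 and the members was not tested. Markers of plasmacytoid dendritic cells, the specialised interferon producers, and of lymphoid cells were all below the filter, with sums of the 8 of 17.7 to 59.4 in iCreb5 libraries and 7.91 to 45.6 in tdTomato libraries.

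**Figure D5:**
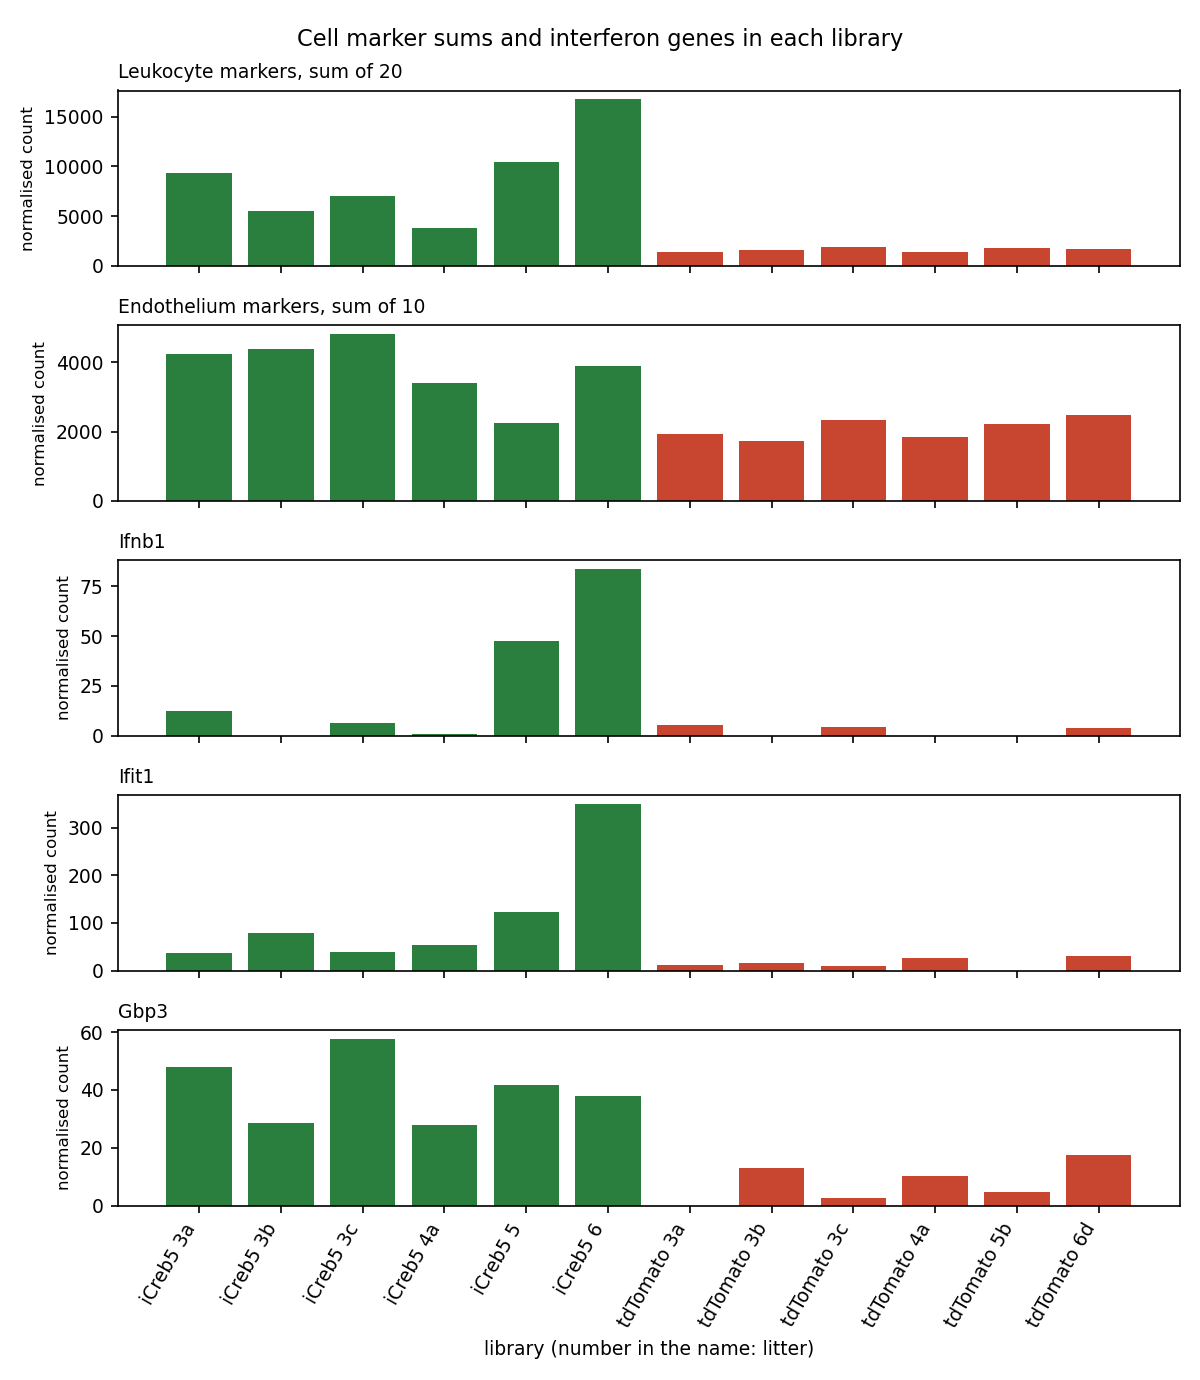
Summed normalised counts of 20 leukocyte and 10 endothelial markers and the normalised counts of Ifnb1, Ifit1 and Gbp3 in each library, iCreb5 (green) left and tdTomato (red) right. iCreb5 6 and 5 are highest for the leukocyte sum (16800 and 10450), Ifnb1 and Ifit1, and Gbp3 is highest in iCreb5 3c.

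Receptors and their signalling proteins were well expressed, and 0 of 14 passed in limma without litter or in edgeR. In limma with litter as a block, 1 of the 14 was higher. Ptpn6 passed in DESeq2 and was the only 1 at an unadjusted p under 0.05 in limma without litter. Jak1, the kinase shared by all interferon receptors, averaged 5576 ± 1020 normalised counts in iCreb5 libraries and 4705 ± 458 in tdTomato libraries, and the receptor chain Ifnar1 averaged 2697 ± 702 in iCreb5 libraries and 2400 ± 410.3 in tdTomato libraries (SD, n = 6 each). Of 18 tested genes that act upstream of interferon, 1 (5.56%) was higher, beside 3.87% of all genes tested. It was Tlr3, the endosomal sensor of double-stranded RNA, at 20.4 to 40.0 normalised counts in iCreb5 libraries and 1.98 to 16.5 in tdTomato libraries (log2 change 1.66, SE 0.44, limma adjusted p = 0.0295). That call was lost on leaving out iCreb5 3a, 3b, 3c, 4a or 6 or tdTomato 6d, with adjusted p between 0.0529 and 0.0757.

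Of 44 interferon-stimulated genes tested outside the 38 members, 2 (4.55%) were higher, near the 3.87% of all genes tested, and DESeq2 called 5. The 2 were Slfn2, a regulator of leukocyte quiescence, and Cxcl10, a chemokine for T cells. Slfn2 averaged 193 ± 136 normalised counts in iCreb5 libraries and 33.1 ± 24.2 in tdTomato libraries (SD, n = 6 each; log2 change 2.59, SE 0.49, limma adjusted p = 0.00352). Cxcl10 ran from 137 to 766 in iCreb5 libraries, highest in iCreb5 6 and 5, and from 36.6 to 111 in tdTomato libraries (log2 change 1.79, SE 0.41, limma adjusted p = 0.0125). The most abundant of the genes that did not pass, Ifitm2, had a change of -0.23 (SE 0.18).

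Antigen presentation genes gave 3 higher of 16 tested (18.75%), beside 3.87% of all genes tested, and a count this small is given as a count only. H2-T23, a nonclassical class I molecule, had 229 ± 17.4 normalised counts in iCreb5 libraries and 112.5 ± 8.46 in tdTomato libraries (SD, n = 6 each; log2 change 1.02, SE 0.14, limma adjusted p = 0.000247), without overlap and with little spread in either group. H2-D1, a classical class I molecule, averaged 930 ± 275 in iCreb5 libraries and 511 ± 28.0 in tdTomato libraries (log2 change 0.82, SE 0.16, limma adjusted p = 0.00356). Psmb8, an immunoproteasome subunit, had a change of 1.99 (SE 0.47, limma adjusted p = 0.0165), and without iCreb5 5 and 6 its adjusted p was 0.0879. B2m, the light chain of class I, had a change of -0.12 (SE 0.19, limma adjusted p = 0.805). Of all 123 pathway genes outside the members, 92 were tested, and 6 (6.52%) were higher and 0 lower in limma without litter. Over all genes tested, 3.87% were higher and 2.85% lower. The median log2 change of the 92 was 0.08. For the same genes edgeR gave 6 higher and 0 lower, and DESeq2 10 and 0, while 20 higher and 5 lower had an unadjusted p under 0.05.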

How the data were processed

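Sorted cells of 6 iCreb5 and 6 tdTomato libraries were sequenced from polyA RNA after Nextera XT preparation, per the labels' protocols. The submitters' processing notes name FastQC, STAR, Salmon, DESeq2 and mm10 and give neither version nor role. The authors deposited a normalised signal per gene. Its values are those of read counts scaled by 1 factor a library, since 100% of them came out as whole reads (tolerance 1e-06). The sources used here do not give strand use in counting or the handling of bovine Creb5 reads. A second table, with 8 columns, was not used.

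Genes at 10 or more in at least 6 libraries were tested on log2(normalised count + 1) by limma 3.58.1 under R 4.3.3, two-sided and without covariate (lmFit, then eBayes with a trend), and p-values were adjusted by Benjamini-Hochberg over all 16733 genes. The added 1 understates changes of weak genes. edgeR 4.0.16 and DESeq2 1.42.0 on the recovered reads, other filters and pseudocounts, equal totals, litter as a block, single litters and left-out libraries were alternatives. The limma step was tested on simulated data. The labels mark shared litters, which pairs the libraries; deviations from group means correlated at 0.129, 0.154, 0.346 and 0.00031 within litters 3, 4, 5 and 6, and at -0.302 to 0.233 between different litters, so the pairing comes from the labels. Coordinates are from GENCODE on GRCm38 (mm10). Intervals for single libraries cover counting error only.

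The 38 members and the gene lists were chosen with earlier results of these data known. All members are named, with Creb5. From each other list, the rule takes at most 4 genes with an adjusted p under 0.05, by size of change, and the 2 most abundant of the others; the report prints part of these, and Ifnb1, Zfp385c and Ptpn6 were added after their values were seen. Muscle and red cell markers gave no call in limma, edgeR or DESeq2 and none at an unadjusted p under 0.05; epidermis (Krt8) and Schwann cell (Sox10) markers gave 1 lower each.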

Additional observations from a re-analysis of the deposited data

Results flagged for a closer look

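For each of the 33 members tested and each group of 6 libraries, 66 groups in all, the gap between an extreme library and its nearest neighbour was set against the whole range, and 4 groups exceeded Dixon's 95% critical value. Chance flags about 1 in 20 groups. Rsad2 in iCreb5 6 had 236 normalised counts, while the other 5 iCreb5 libraries had 38.4 to 72.1. Dtx3l in iCreb5 5 had 21.2, while the other iCreb5 libraries had 74.8 to 117. Ifit1 was at 0 in tdTomato 5b, while the other tdTomato libraries had 9.59 to 29.7. Ifit3b was at 0 in tdTomato 6d, while the other tdTomato libraries had 5.51 to 17.8.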

How the results depend on the processing

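Over the 33 members tested, 25 alternative settings left 720 of the changes on the same side of 0 and of the threshold. Weak members limit the calls: at 3 reads a library reads 1.48 to 8.38 normalised counts. Of all genes, 395 were higher and 292 lower in litter 3 alone, 320 were higher in litters 4 to 6, and 728 were lower in the paired fit with litter as the replicate block. The 3 higher members became 1 with no filter on low values, in litter 3 alone or without tdTomato 3a and 5b, and 0 in litters 4 to 6 or with a filter at 50, which leaves Ifih1, Ifit1 and Gbp3 out of the test; leaving out 1 library gave 1 to 3. The 2 lower members became 1 with the replicate block and litter 3 averaged (Samd9l at an adjusted p of 0.0562 in limma), in litter 3 alone and in litters 4 to 6. The 6 higher pathway genes became 10 in DESeq2, 3 in litter 3 and 2 in litters 4 to 6. Lower pathway genes numbered 1 rather than 0 in the replicate block fit and without iCreb5 5 and 6, and 0 to 1 on leaving out 1 library. The block changed no other member's call than that of Oasl1. With equal totals the median of all genes was 0.07. The cause of these differences was not tested beyond what each setting removes.

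A sign change occurred in 60 cases over 16 members, and 0 of these were past the threshold on either side; the values are log2 changes, iCreb5 minus tdTomato. In litter 3 alone they were 0.21 for Ddx58, -0.024 for Dhx58, -0.40 for Oasl2, -0.082 for Ifit3, -1.47 for Ifit3b, -0.34 for Eif2ak2, 0.20 for Usp18, -0.10 for Parp9 and -1.0 for Ifi44. In litters 4 to 6 they were 0.064 for Irf1, -0.054 for Trim25, -0.080 for Dtx3l, 0.099 for Gbp2, 0.083 for Ifi27 and 0.25 for Ifi35. Without iCreb5 5 and 6 they were 0.11 for Ddx58, -0.0025 for Ifit3, -0.27 for Ifit3b and -0.011 for Eif2ak2. Without tdTomato 3a and 5b they were 0.025 for Irf1, 0.0070 for Ifi27 and -0.52 for Ifi44. With litter 3 averaged in the replicate block they were 0.020 for Irf1, 0.0015 for Ifi27 and 0.12 for Ifi35. In edgeR they were 0.028 for Irf1 and -0.39 for Ifi44, and in DESeq2 0.021 for Irf1, -0.0066 for Oasl2 and -0.38 for Ifi44. With equal totals they were 0.045 for Irf1 and 0.047 for Ifi35, and with a pseudocount of 5 Ifi44 had -0.045. On leaving out 1 library in turn, the ranges that cross 0 were -0.17 to 0.087 for Ddx58, -0.20 to 0.083 for Irf1, -0.015 to 0.19 for Stat2, -0.13 to 0.25 for Oasl2, -0.23 to 0.96 for Ifit3b, -0.053 to 0.15 for Eif2ak2, -0.42 to 0.10 for Usp18, -0.20 to 0.021 for Ifi27, -0.11 to 0.086 for Ifi35 and -0.56 to 0.63 for Ifi44.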
